A study of Mus musculus with 12 samples.

Results

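The genes examined here follow the oligodendrocyte lineage from its precursor cells to myelin. They are 34 named genes out of the 48709 genes counted, found by symbol after Ensembl identifiers were matched to GENCODE M21, and all 34 had an entry in the counts. For description they were placed in 4 roles, namely 6 transcription factors of the lineage, 7 genes of precursor cells, 6 genes of newly committed cells and 15 genes of mature, myelin-forming cells.

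RNA was sequenced in 12 samples of primary hippocampal culture of CD1 mice, made from the pooled hippocampi of embryos at embryonic day 17 and holding neurons and glial cells. At day 10 in vitro, 6 samples received lipid nanoparticles (LNPs) carrying a mimic of miR-148a-3p, a double-stranded RNA that adds to the cell's own microRNA. The other 6 received LNPs with a negative control oligonucleotide, and both groups were harvested 48 h later, at day 12. Per the study's methods both groups also received the apolipoprotein ApoE4. The sources used here do not say whether the 6 samples of a group were separate cultures, so p-values measure only the spread between these samples, which may be technical.

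Oligodendrocyte precursor cells divide and migrate through the brain and are recognised by the growth factor receptor PDGFRα and the proteoglycan NG2, encoded by Pdgfra and Cspg4. When a precursor cell commits, it stops dividing and passes through a stage with GPR17 and BCAS1, and it then makes the lipids and proteins of myelin, the sheath that insulates axons. OLIG2 and SOX10 act through the whole lineage, and MYRF is needed for the last steps. Several members are also used outside the lineage: Olig1 and Olig2 in neural progenitors, Ptprz1 in radial glia and astrocytes, Sox6 in interneurons, Pdgfra in fibroblasts, Cspg4 in pericytes, and Enpp2 in the choroid plexus.

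The oligonucleotides are shown because the 2 groups differ in them. In the lines that follow, written 5′ to 3′, capitals mark the seed, bases 2 to 8, through which a microRNA pairs with the 3′ untranslated region (UTR) of a transcript. The mimic has the same letters as the RefSeq entry for mmu-miR-148a-3p, at chr6:51269829-51269850 on the minus strand of GRCm38.p6. The control sequence is that of the study's reagent list, and it is assumed to be the one given to these samples, because the series text names a siRNA as its control instead.
mimic of miR-148a-3p: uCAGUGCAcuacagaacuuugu
negative control: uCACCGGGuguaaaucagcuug

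In the longest 3′ UTR of each gene, 7 of the 34 members (20.6%) held a site for the seed of miR-148a-3p, each of them 1 site of 7 bases. All 7 were among the 30 tested members (23.3%), and among all 15082 tested genes with an annotated 3′ UTR the share was 21.9%. The members with a site were Sox10, Cspg4, Pcdh15, C1ql1, Zfp488, Mbp and Ugt8a. Among coding transcripts with a 3′ UTR, 1 of 27 for Pcdh15 and 2 of 9 for Mbp held the site. Counts per gene do not show which of these transcripts the cells made. The sites of 6 of them are shown as the last bases of a stretch of 21, on the transcript's strand (GENCODE M21, GRCm38), because they are where the mimic could pair with a member. Capitals mark the site: TGCACTG is the complement of bases 2 to 8 of the mimic, and GCACTGA is the complement of bases 2 to 7 followed by an A.
Sox10, chr15:79155478-79155498, minus strand: ctgtcactaaggacGCACTGA
Cspg4, chr9:56899612-56899632, plus strand: gtcgtttgagtttgTGCACTG
Pcdh15, chr10:74647050-74647070, plus strand: ttccacagcttcatTGCACTG
C1ql1, chr11:102939480-102939500, minus strand: tcctggtcccagccTGCACTG
Zfp488, chr14:33968572-33968592, minus strand: gagcccacacattgGCACTGA
Ugt8a, chr3:125866027-125866047, minus strand: gtttactgagcattTGCACTG

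Of these 7 members with a site, Sox10 and Cspg4 rose with the mimic, none fell, and 5 did not pass the test, while 22.2% of all tested genes passed it in either direction, 11.5% higher and 10.7% lower. A match of these letters is a description and does not show that the transcript is bound.

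Library totals ran from 20018234 to 37149112 counts, both at control samples. Control 1, the shallowest library, stood apart from the other 11 on the second principal component of all genes, and members whose call changes without it are given with both values. Markers of neurons and of astrocytes were both present. The 9 neuron markers summed to between 7122 and 7950 CPM (counts per 1000000 of the library total after TMM scaling) in every library. The 10 astrocyte markers summed to between 4881 and 6196 CPM. A gene was tested where 6 or more samples had 5 or more counts. Of the 18847 such genes 22.2% passed an adjusted p of 0.05 in edgeR's quasi-likelihood test, 11.5% higher and 10.7% lower with the mimic, and these are the genes called below. The median log2 fold change of all tested genes was -0.012.

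Of the 34 members, 30 passed the count filter, and 12 of these 30 rose with the mimic while 1, Mog, fell, against 11.5% and 10.7% of all tested genes. The genes that rose were all 6 transcription factors, the precursor genes Pdgfra, Cspg4 and Ptprz1, the committed-stage genes Gpr17 and Bcas1, and 1 gene of mature cells, Cldn11. In 10 of the 30 tested members every mimic library lay above every control library, against 7.43% of all tested genes. None of the 30 had every mimic library below every control library, against 5.83% of all tested genes.

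**Figure D1:**
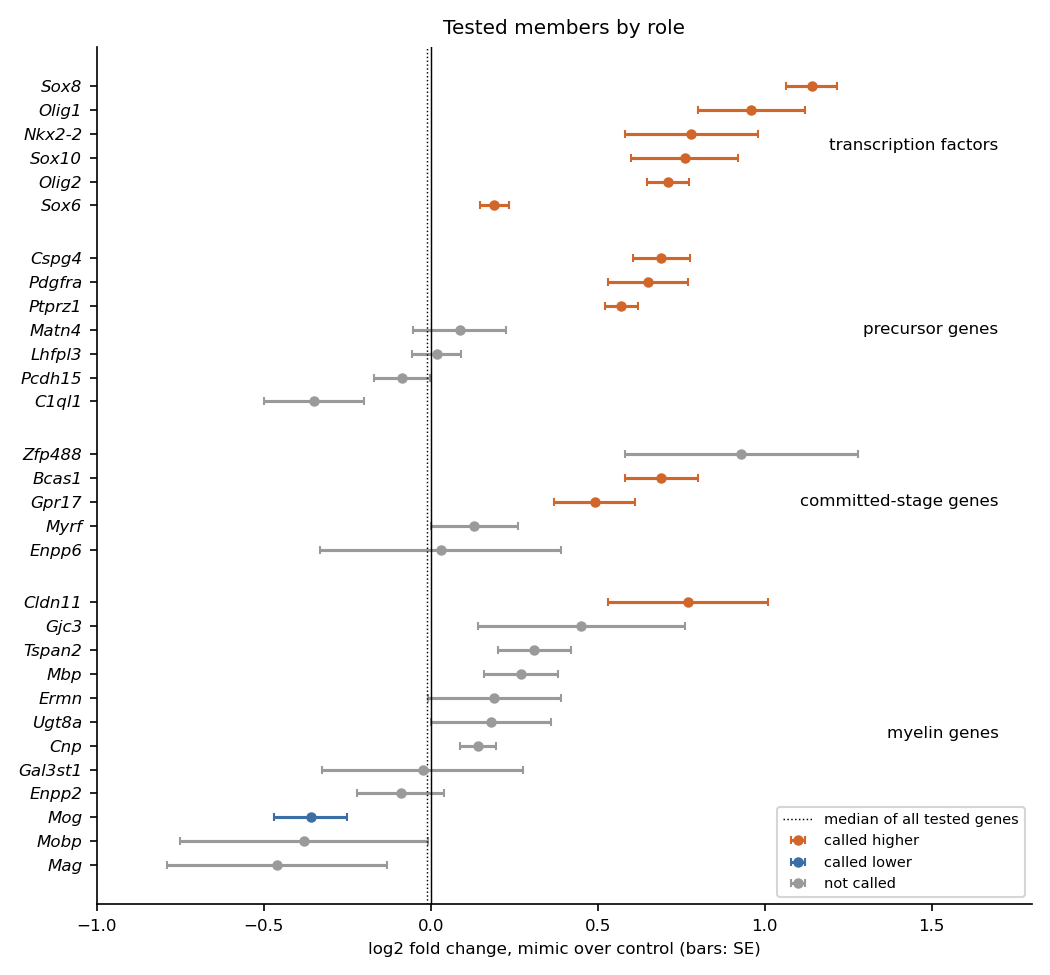
Log2 fold change of the mimic over the control group for the 30 tested members by role (points, with bars of 1 SE); orange marks genes called higher, blue the gene called lower and grey those not called. All 6 transcription factors lie above 0, from 0.19 for Sox6 to 1.14 for Sox8, whereas the 12 tested myelin genes lie on both sides of 0, from -0.46 for Mag to 0.77 for Cldn11.

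The members differed widely in level, and levels were compared between genes only as mean CPM per kb of exon. The length was that of all annotated exons of a gene together, 8469 bases for Mbp and 1704 for Mog. The order of these 2 genes depends on it, since their control means were 9.26 and 2.12 CPM. In the control libraries Olig1 had the highest level, at 171 CPM per kb, followed by Ptprz1 at 75.5, Olig2 at 13.9, Cnp at 10.1 and Sox8 at 5.25. Pdgfra and Cspg4, the genes by which precursor cells are recognised, stood at 1.41 and 0.846 CPM per kb. Among the myelin genes Mog stood at 1.24, Mbp at 1.09, Mag at 0.120 and Mobp at 0.0635 CPM per kb, and Opalin, a late myelin gene, at 0.0105. Olig1 was 12.3 times Olig2 on this scale.

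**Figure D2:**
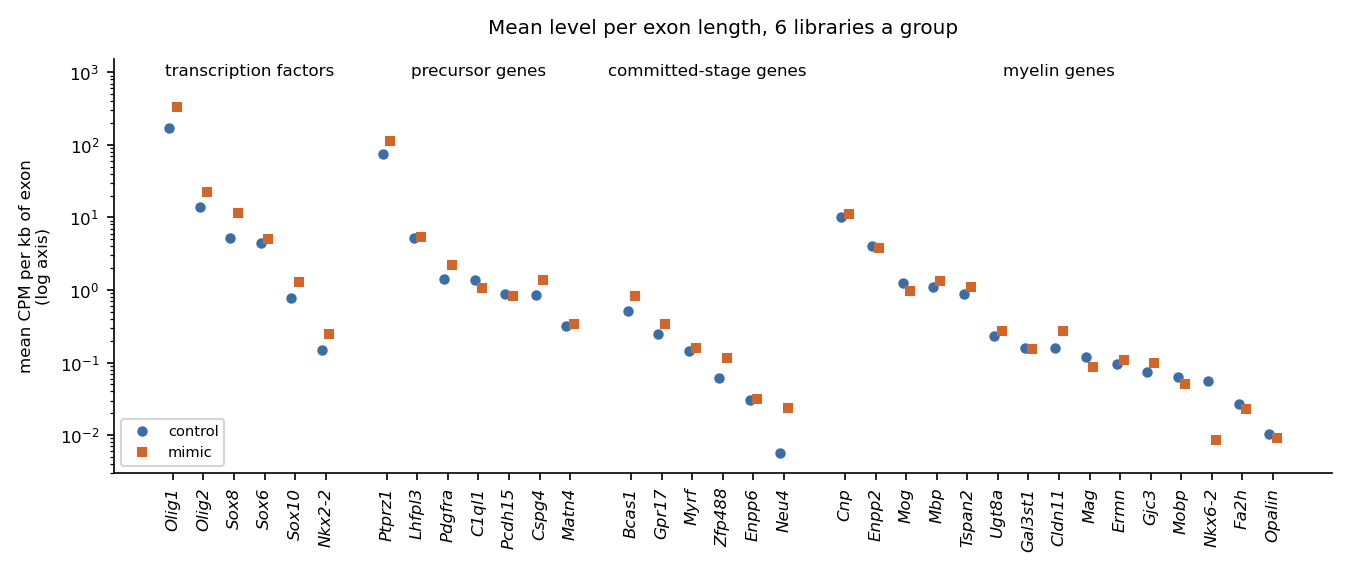
Mean level of each of the 34 members in control (blue circles) and mimic (orange squares) libraries, in CPM per kb of exon on a log axis, ordered within each role by the control level. Control levels run from 171 CPM per kb for Olig1 down to 0.00561 for Neu4, and every transcription factor has its mimic point above its control point.

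All 6 transcription factors rose, and in each of them the lowest mimic library was above the highest control library. Of all tested genes 11.5% rose, and 7.43% had every mimic library above every control library. The median log2 fold change of the 6 was 0.77, and their values ran from 0.19 to 1.14. In bulk RNA, a change in the share of cells of a type and a change in RNA per cell cannot be told apart, for these and for all other members.

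Olig1 (chr16:91269772-91271933), a basic helix-loop-helix factor of the lineage, ran from 306 to 594 CPM in the control libraries with a median of 328, and from 652 to 834 CPM with a median of 676 in the mimic libraries. The groups did not overlap, but the 594 CPM belonged to control 1 and the other 5 controls lay between 306 and 339 CPM. The log2 fold change was 0.96 ± 0.16 (SE; adjusted p = 0.000765, edgeR), and it was 1.15 without control 1 (adjusted p = 2.28e-07). Olig2 (chr16:91225457-91228677), which specifies the lineage, lies 41094 bases before Olig1 on the same strand. It ran from 31.4 to 41.2 CPM with a median of 34.6 in control and from 52.7 to 61.5 CPM with a median of 57.5 in mimic libraries. Both neighbours in this locus thus rose in all 6 mimic libraries over the control mean, Olig2 by 0.71 ± 0.063 on the log2 scale (adjusted p = 2.99e-07).

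Sox8 (chr17:25565892-25570686), an HMG-box factor related to SOX10, had the highest log2 fold change of the 30 tested members, 1.14 ± 0.077 (adjusted p = 1.36e-08), a ratio of 2.20. It ran from 14.4 to 19.9 CPM (median 15.9) in control and from 32.5 to 41.1 CPM (median 33.9) in mimic libraries. An antisense gene, 2810468N07Rik, shares 329 exon bases with Sox8, had a mean of 106 counts against 786 for Sox8 and also rose (0.61, adjusted p = 0.000985). The strand setting of the counting is not stated, so reads of these overlapping genes may not be fully separated.

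Sox10 (chr15:79154908-79165240), the factor that drives myelin genes with MYRF, ran from 1.56 to 3.04 CPM (median 2.39) in control and from 3.24 to 5.65 CPM (median 3.77) in mimic libraries. The gap between the groups was narrow, and mimic 3 was the high value. Its log2 fold change was 0.76 ± 0.16 (adjusted p = 0.00176). Nkx2-2 (chr2:147177546-147194243), a homeodomain factor that rises as precursor cells start to differentiate, had only 9 to 18 counts per control library and 18 to 27 per mimic library. In CPM it ran from 0.242 to 0.557 (median 0.414) and from 0.582 to 0.809 (median 0.751), a log2 fold change of 0.78 ± 0.20 (adjusted p = 0.00862). In the test against a minimum fold of 1.2 it did not pass (adjusted p = 0.0618).

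Sox6 (chr7:115470872-116038796), which holds precursor cells back from differentiation and is also a gene of interneurons, changed least of the 6. It ran from 60.7 to 70.6 CPM (median 68.1) in control and from 72.2 to 78.4 CPM (median 75.6) in mimic libraries. The log2 fold change was 0.19 ± 0.044 (adjusted p = 0.00439). This small difference did not exceed a fold of 1.2 in the test against that minimum.

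**Figure D3:**
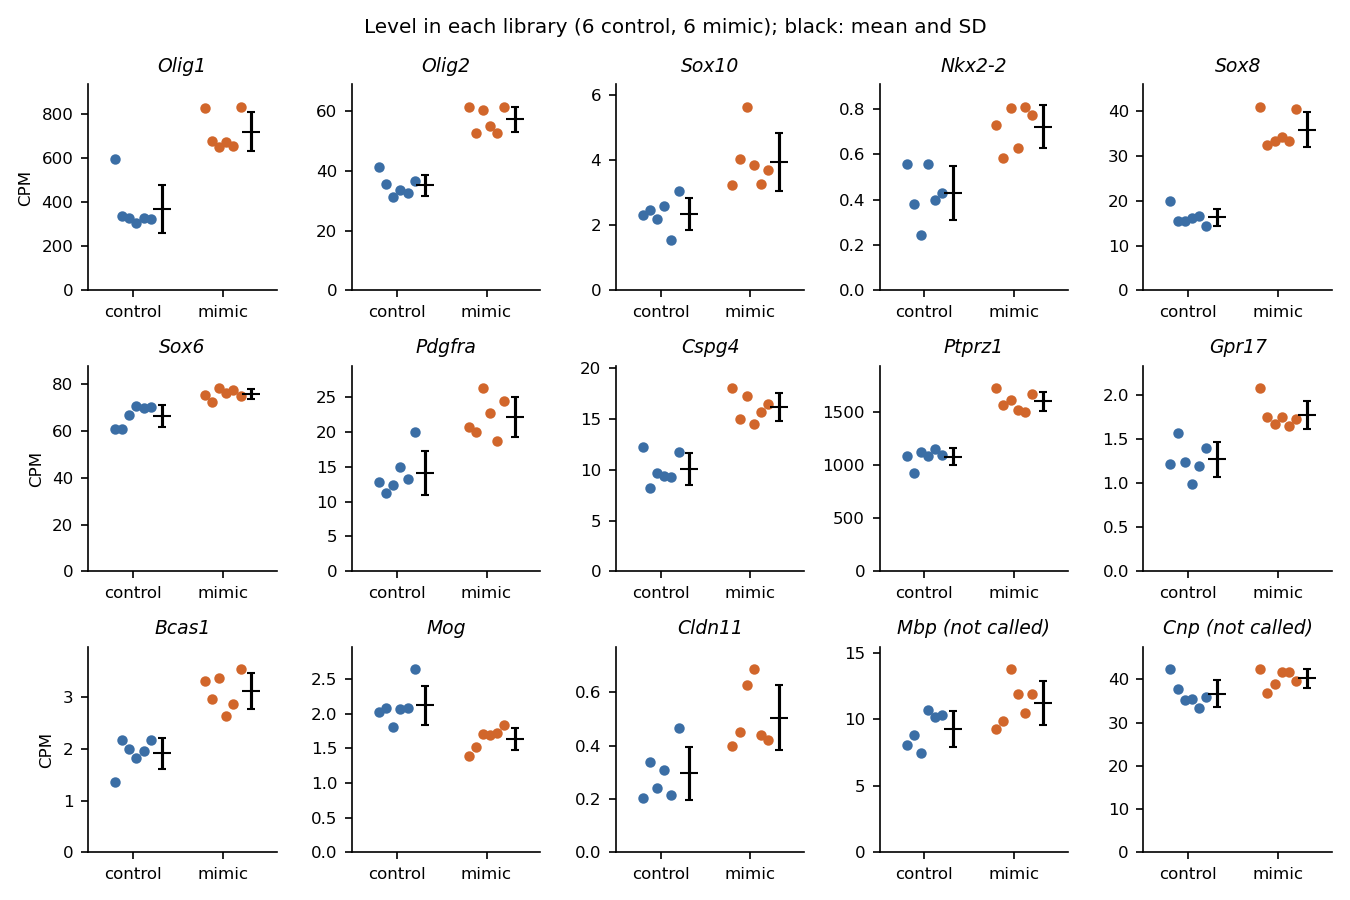
CPM of the 13 called members, and of Mbp and Cnp for comparison, in each of the 6 control (blue) and 6 mimic (orange) libraries, with the mean and SD in black on axes that start at 0. Control 1 stands above the other controls for Olig1, at 594 CPM, and for Mog the highest mimic point, at 1.83 CPM, just passes the lowest control point, at 1.81 CPM.

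The 7 precursor genes divided, with 3 higher, 0 lower and 4 that did not pass the test. Of all tested genes 11.5% were higher and 10.7% lower. The median log2 fold change of the 7 was 0.086. This median was 0.027 without mimic 3, 0.036 without mimic 4, 0.041 without control 5, 0.056 without control 6, 0.14 without mimic 1 and 0.15 without mimic 6. It was 0.29 over the precursor genes that remained under a filter of at least 50 counts, and 0.65 with the 6 transcription factors added. Ptprz1 (chr6:22875502-23052916), a receptor phosphatase of precursor cells and astrocytes, had the most counts. It ran from 921 to 1150 CPM (median 1092) in control and from 1501 to 1727 CPM (median 1587) in mimic libraries, with a log2 fold change of 0.57 ± 0.05 (adjusted p = 2.71e-07). Control 2 was the lowest library, and the groups were well apart.

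Cspg4 (chr9:56865033-56899870), encoding NG2, ran from 8.20 to 12.2 CPM (median 9.55) in control and from 14.5 to 18.1 CPM (median 16.1) in mimic libraries, with a log2 fold change of 0.69 ± 0.086 (adjusted p = 1.52e-05). Pdgfra (chr5:75152292-75198215), the receptor through which PDGF keeps precursor cells dividing, ran from 11.2 to 20.0 CPM (median 13.0) in control and from 18.6 to 26.3 CPM (median 21.6) in mimic libraries. Its groups overlapped at 1 control library, at 20.0 CPM, and the log2 fold change was 0.65 ± 0.12 (adjusted p = 0.00117).

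The other 4 precursor genes did not pass the test. Lhfpl3, a precursor-enriched membrane protein gene, had a log2 fold change of 0.017 ± 0.073 (adjusted p = 0.905), with 13.9 to 18.9 CPM in control and 15.5 to 18.6 CPM in mimic libraries. Pcdh15, a protocadherin, had -0.087 ± 0.084, and the matrix protein gene Matn4 had 0.086 ± 0.14. C1ql1, a secreted C1q-like protein of precursor cells, had -0.35 ± 0.15 (adjusted p = 0.103), with every mimic library below the control mean. Without control 1 C1ql1 passed as lower, at -0.41 (adjusted p = 0.0388). The SEs of the role ran from 0.05 to 0.15.

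Of 6 committed-stage genes 5 were tested, and 2 rose while 3 did not pass. That is 40.0% of 5 genes called, against 22.2% of all tested genes in either direction and 11.5% higher. Bcas1 (chr2:170346991-170427845), which marks cells that have begun to form myelin, had the most counts of the role and ran from 1.36 to 2.18 CPM (median 1.98) in control and from 2.63 to 3.55 CPM (median 3.14) in mimic libraries. Its log2 fold change was 0.69 ± 0.11 (adjusted p = 0.000196). Gpr17, a receptor of the transient stage between precursor and myelinating cell, ran from 0.990 to 1.57 CPM (median 1.23) in control and from 1.65 to 2.08 CPM (median 1.73) in mimic libraries, with 0.49 ± 0.12 (adjusted p = 0.00604). In both genes every mimic library was above every control library, as in 7.43% of all tested genes. Gpr17 had only 24 to 63 counts a library, however, and did not pass the test against a minimum fold of 1.2 (adjusted p = 0.143).

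Zfp488, a zinc finger factor that works with OLIG2, had the highest log2 fold change of the 5 tested genes at 0.93 ± 0.35, at 3 to 27 counts a library, and did not pass (adjusted p = 0.0660). It passed without control 1 (1.10, adjusted p = 0.0233), control 6 (1.14, adjusted p = 0.0385) or mimic 2 (1.08, adjusted p = 0.0274). Myrf, the factor that switches on myelin genes, had 0.13 ± 0.13 (adjusted p = 0.583), and Enpp6, a marker of newly formed oligodendrocytes, had 0.029 ± 0.36 at 2 to 10 counts a library. Neu4, a sialidase of early cells, failed the count filter with 5 counts over the 6 control libraries and 20 over the 6 mimic libraries. Without the filter Neu4 had a log2 fold change of 1.78 ± 0.65, which did not pass (adjusted p = 0.0760).

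Among 15 genes of mature cells 12 were tested, of which 1 rose, 1 fell and 10 did not pass. That share of called genes, 16.7%, was near the 22.2% of all tested genes, and the median log2 fold change was 0.16. Among the 12 the groups overlapped in every gene. Of all tested genes, 7.43% had every mimic library above every control library and 5.83% had every mimic library below.

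Mog (chr17:37010743-37023398), a protein of the outer face of myelin, ran from 1.81 to 2.65 CPM (median 2.08) in control and from 1.39 to 1.83 CPM (median 1.69) in mimic libraries. All 6 mimic libraries were below the control mean and the log2 fold change was -0.36 ± 0.11 (adjusted p = 0.0241). The call was lost without control 6, which held the highest value (-0.29, adjusted p = 0.0675), without mimic 1 (-0.32, adjusted p = 0.0588) or without mimic 2 (-0.34, adjusted p = 0.0517). Cldn11 (chr3:31149920-31164324), the claudin of the tight junctions in myelin, ran from 0.202 to 0.465 CPM (median 0.276) in control and from 0.397 to 0.688 CPM (median 0.445) in mimic libraries, at 4 to 22 counts a library. Its log2 fold change was 0.77 ± 0.24 (adjusted p = 0.0269), and its call was lost without control 3 (0.71, adjusted p = 0.0669), control 5 (0.69, adjusted p = 0.0651), mimic 3 (0.70, adjusted p = 0.0644) or mimic 4 (0.66, adjusted p = 0.0682). Both calls in this role depend on which libraries are included, and neither passed the test against a minimum fold of 1.2 (adjusted p = 0.594 for Mog and 0.157 for Cldn11).

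Cnp (chr11:100574904-100591729), a phosphodiesterase of myelin that is also expressed in other cells, had the most counts of the role. It ran from 33.3 to 42.5 CPM (median 35.7) in control and from 36.8 to 42.4 CPM (median 40.6) in mimic libraries, a log2 fold change of 0.14 ± 0.054 that did not pass (adjusted p = 0.0854). Control 1 held the 42.5 CPM, and without it Cnp passed at 0.18 (adjusted p = 0.00300). Cnp shares 154 exon bases with Dnajc7 on the other strand, which had a mean of 5458 counts and a log2 fold change of 0.027 (adjusted p = 0.583).

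Mbp, the basic protein that compacts the myelin membrane, ran from 7.49 to 10.7 CPM (median 9.48) in control and from 9.27 to 13.8 CPM (median 11.2) in mimic libraries, a log2 fold change of 0.27 ± 0.11 (adjusted p = 0.0775). It passed without control 4 (adjusted p = 0.0462) or without mimic 1 (adjusted p = 0.0427). Counts per gene do not separate the myelin transcripts of Mbp from its golli transcripts, which other cells also make. Tspan2, a tetraspanin of myelin, had 0.31 ± 0.11 (adjusted p = 0.0533), the nearest to the threshold of those that did not pass. It passed without control 4 (adjusted p = 0.0319), control 5 (adjusted p = 0.0385) or mimic 5 (adjusted p = 0.0217).

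The other 7 tested myelin genes had log2 fold changes of 0.45 ± 0.31 for the connexin Gjc3, 0.19 ± 0.20 for the cytoskeletal gene Ermn and 0.18 ± 0.18 for Ugt8a, which makes the myelin lipid galactosylceramide. Gal3st1, which adds sulfate to that lipid, had -0.025 ± 0.30. Enpp2, which makes lysophosphatidic acid, had -0.09 ± 0.13, and Mobp and Mag, genes of compact myelin and of its contact with the axon, had -0.38 ± 0.37 and -0.46 ± 0.33. For these low genes the errors were wide: Mag, Mobp, Gal3st1, Gjc3 and Ermn had mean counts from 9.58 to 12.4 a library and SEs from 0.20 to 0.37.

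Opalin, Fa2h and Nkx6-2 failed the count filter. Opalin had 6 counts over the control and 5 over the mimic libraries, and Fa2h, which hydroxylates myelin lipids, had 13 and 13. Nkx6-2, a homeodomain factor of maturing oligodendrocytes, had 17 counts over the control and 3 over the mimic libraries, and it passed as lower when all genes were tested without a filter (adjusted p = 0.0320). Nkx6-2 shares 246 exon bases with Inpp5a on the other strand, which had a mean of 1095 counts and fell slightly (-0.14, adjusted p = 0.00701).

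Library by library, the median over the 6 transcription factors of the log2 ratio to the control mean ran from -0.14 to 0.26 in control and from 0.67 to 0.86 in mimic libraries. For the 5 tested committed-stage genes it ran from -0.22 to 0.19 and from 0.073 to 0.77. For the 7 precursor genes it ran from -0.22 to 0.18 and from 0.0049 to 0.35, and for the 12 tested myelin genes from -0.19 to 0.19 and from 0.049 to 0.21. The groups were apart for the transcription factors and overlapped in the other 3 roles. The difference between roles was not tested.

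**Figure D4:**
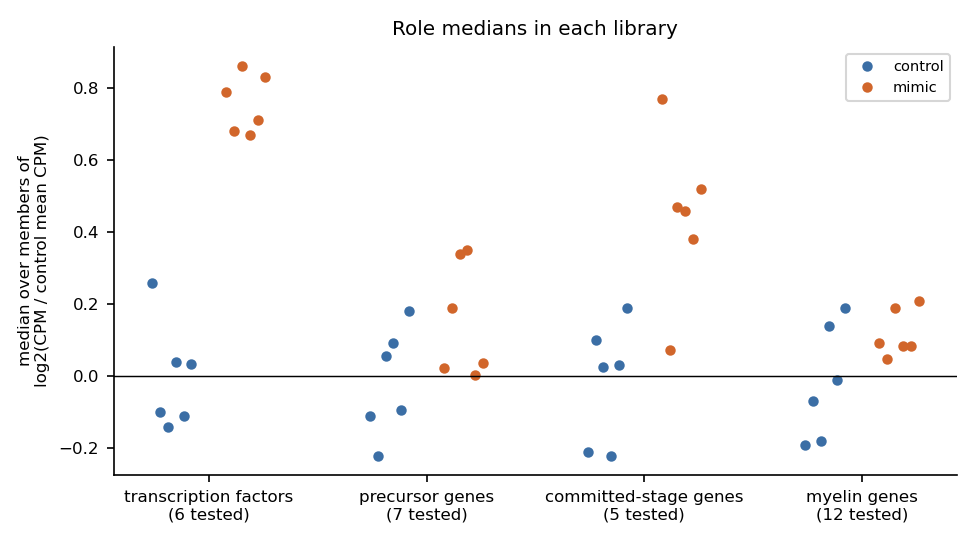
Median over the tested members of each role of log2(CPM / control mean CPM), for each of the 6 control (blue) and 6 mimic (orange) libraries. The mimic libraries lie at 0.67 to 0.86 for the transcription factors, above all controls, and at 0.049 to 0.21 for the myelin genes, within reach of the controls.

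Other genes of the lineage were taken from lists outside the 34, and calls among them went in both directions. Of 14 other precursor genes 8 rose and 2 fell, against 11.5% and 10.7% of all tested genes, with a median log2 fold change of 0.17. Xylt1, which starts the sugar chains of proteoglycans, rose from 71.0 ± 7.68 to 123 ± 9.92 CPM (SD, n = 6; 0.79 ± 0.066, SE, adjusted p = 1.84e-07 in edgeR), and Rlbp1, a retinoid-binding protein gene, by 0.71 ± 0.13 (adjusted p = 0.000710). The 2 that fell, named after their values were seen, were Afap1l2 at -0.50 and Epn2 at -0.14. Of 8 other committed-stage genes 2 rose and 2 fell, with a median of -0.049, and the 2 that rose were Tcf7l2 (0.49 ± 0.07), a transcription factor of differentiating cells, and Itpr2 (0.36 ± 0.051), a calcium channel gene. The 2 that fell, named after their values were seen, were Bmp4 at -1.25, a growth factor and the largest change of this list, and Chn2 at -0.27.

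Of 34 other genes of mature oligodendrocytes 28 were tested, and 7 rose and 4 fell, against 11.5% and 10.7% of all tested genes. The median of the list was 0.076. The 2 with the largest change under the naming rule were Car2 (0.64 ± 0.071), a carbonic anhydrase, and Anln (0.63 ± 0.054), which encodes anillin, a protein of dividing cells as well as of myelin. The 4 that fell, named after their values were seen, were Mal at -0.94, Prr5l at -0.61, Tppp3 at -0.44 and Efnb3 at -0.20. Mal, a proteolipid of myelin, had the largest change of this list. S1pr5 rose by 0.74, Dock10 by 0.53, Ptgds by 0.40, Serinc5 by 0.33 and Cers2 by 0.24. They were the other genes that rose, and were also named after their values were seen. Among 14 signals and inhibitors of the lineage 5 rose and 1 fell, and the median was -0.097. Jag1, a Notch ligand, rose by 0.57 ± 0.092 (adjusted p = 0.000193), and Hes1, a target of Notch that holds back differentiation, by 0.51 ± 0.071 (adjusted p = 4.95e-05). The gene that fell was the cytokine gene Lif, at -0.85, the largest change of this list and named after its value was seen.

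Markers of other cells were counted in the same way, beside the 11.5% higher and 10.7% lower of all tested genes. All 10 genes of dividing cells rose, with a median log2 fold change of 0.83 and a summed level of 229 to 270 CPM in control and 436 to 464 CPM in mimic libraries. Ccnb1 and Birc5, which act in mitosis, rose by 1.34 ± 0.096 and 1.24 ± 0.066. Of 10 astrocyte markers 8 rose and 1 fell, with a summed level of 4881 to 5367 CPM in control and 5744 to 6196 CPM in mimic libraries. The glutamate transporter gene Slc1a3 rose by 0.99 ± 0.038, and Gfap, which is high in reactive astrocytes, fell by 0.90 ± 0.078 on the log2 scale. Gjb6, named after its value was seen, rose by 1.32, the largest change of the astrocyte list.

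Of 10 neural progenitor markers 5 rose and 2 fell, against 11.5% and 10.7% of all tested genes. Egfr was higher by 0.89 ± 0.052, and Hes1 was on that list too. The 2 that fell, named after their values were seen, were Vim at -0.29 and Hopx at -0.14. The summed levels of the list overlapped, at 2248 to 2413 CPM in control and 2258 to 2453 CPM in mimic libraries. Of 6 tested Schwann cell markers 4 rose and 1 fell, and the summed level of the list was 55.9 to 64.6 CPM in control and 77.4 to 82.4 CPM in mimic libraries. Pmp22, a gene of peripheral myelin and of other cells, rose by 0.53 ± 0.04 while Egr2, a factor needed for Schwann cells, fell by 0.77 ± 0.17. Pou3f1, named after its value was seen, rose by 0.91, the largest change of the Schwann cell list. The part of these cells in the changes of the 13 called members was not tested.

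Of 10 mesenchymal and mural markers 9 were tested, and 1 rose and 2 fell, against 11.5% and 10.7% of all tested genes. The sum of the list was 171 to 240 CPM in control and 87.5 to 175 CPM in mimic libraries. The smooth muscle genes Acta2 and Tagln fell, with log2 fold changes of -2.86 ± 0.42 and -1.74 ± 0.21, and the pericyte gene Rgs5, named after its value was seen, rose by 1.16. The other 6 tested genes of the list did not pass, and ran from -0.49 for Col1a1 to 0.42 for Dcn. The part of these cells in the values of Pdgfra and Cspg4 was not tested. Of 8 choroid plexus markers 1 rose, Kl at 0.95, and 1 fell, Folr1 at -0.59 ± 0.14, with sums of 228 to 433 and 204 to 372 CPM. The choroid plexus calls were near the shares of all tested genes.

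Of 9 neuron markers none rose and 3 fell, against 11.5% and 10.7% of all tested genes, with Tubb3 at -0.32 ± 0.036 and Neurod2 at -0.27 ± 0.06. Of 9 interneuron markers 1 rose, Gad2 by 0.14 ± 0.038, and 1 fell, Pvalb at -0.85, with sums of 403 to 436 and 420 to 437 CPM. Of 7 microglia markers none rose and 1 fell, C1qa at -0.79, with sums of 21.8 to 25.7 and 20.8 to 28.5 CPM. The interneuron and microglia calls were near the shares of all tested genes. Kl, Pvalb and C1qa were named after their values were seen. No gene of these marker lists was at 0 in all libraries.

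**Figure D5:**
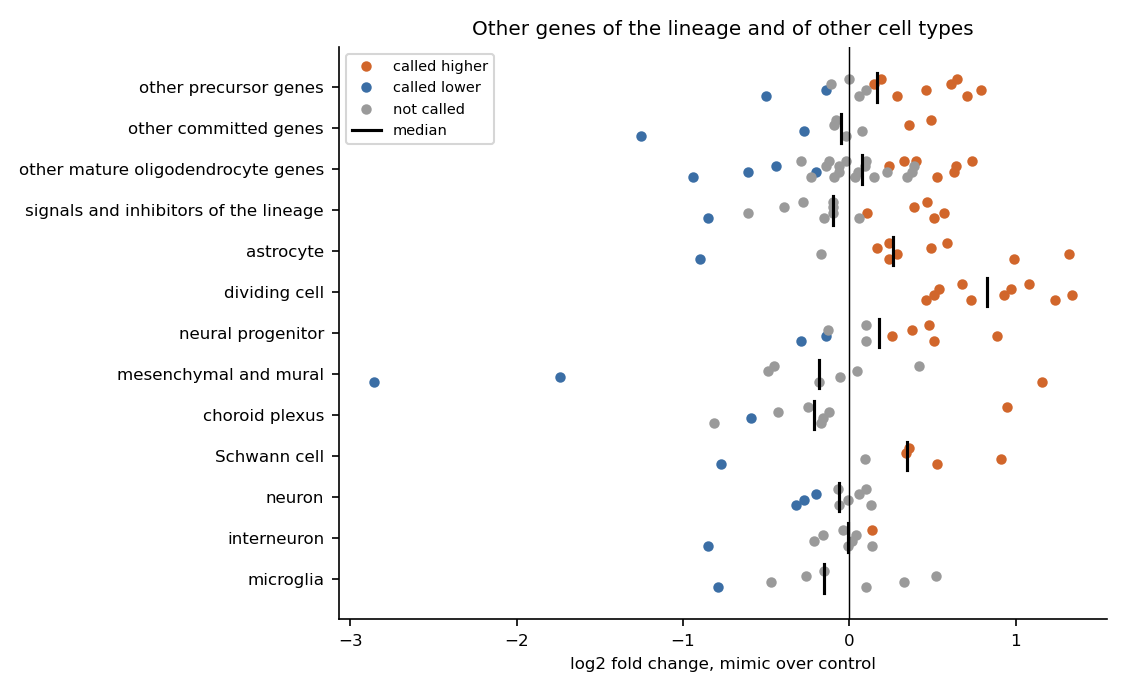
Log2 fold change of the tested genes of 13 other lists (points; orange called higher, blue called lower, grey not called), with the median of each list as a black bar. All 10 dividing-cell genes lie to the right of 0, with a median of 0.83, and the other mature oligodendrocyte genes are spread around a median of 0.076.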

How the data were processed

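The authors aligned the reads (poly(A) RNA, 50 bp single-end) to mm10 with STAR 2.5.2b and counted them per gene with featureCounts (Subread 1.5.1). These raw counts, deposited for each of 12 samples, were the only measurements analysed. The authors' normalized table was not used. Genes reaching 5 counts in 6 or more samples were tested in edgeR 4.0.16 (R 4.3.3; TMM, glmQLFit with robust estimation, glmQLFTest, no covariate), with Benjamini-Hochberg adjustment over all 18847 tested genes and a threshold of 0.05. DESeq2, the study's own test, was an alternative here (version 1.42.0). CPM are relative to the TMM-scaled total, and SEs come from the F statistic.

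Symbols, coordinates and UTRs came from GENCODE M21 (GRCm38, the build of mm10), which named 48349 genes. All members were named; called ones and the most counted of each role have values by sample, and from each other list the 2 called genes with the largest change and a mean of at least 100 counts were named. Other genes named were chosen after their values were seen. Members and lists were chosen with earlier results of these data known. Samples with the same replicate number did not deviate together. The alternatives were other scalings and filters, a minimum fold, a replicate block and leaving out libraries.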

Additional observations from a re-analysis of the deposited data

Results flagged for a closer look

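Of 60 sets of 6 libraries (30 tested members in 2 groups), 7 held a library far from the other 5 by Dixon's criterion on the gap to its nearest neighbour. Chance alone gives about 1 in 20 such sets. Olig1 stood at 594 CPM in control 1, against 306 to 339 CPM in the other controls. Ptprz1 was at 921 CPM in control 2, against 1081 to 1150 CPM. Mog was at 2.65 CPM in control 6, against 1.81 to 2.08 CPM. Among mimic libraries, Sox10 was at 5.65 CPM in mimic 3 (others 3.24 to 4.04 CPM), Gpr17 at 2.08 CPM in mimic 1 (others 1.65 to 1.75 CPM), Myrf at 1.76 CPM in mimic 6 (others 1.16 to 1.36 CPM) and Enpp2 at 28.5 CPM in mimic 5 (others 19.4 to 21.9 CPM).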

How the results depend on the processing

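With each library left out in turn, and without controls 1 and 2 together, which was chosen after seeing the data, members called higher numbered 11 to 14 against 12, and members called lower 0 to 2 against 1. In the same fits the mature genes called higher numbered 0 to 3 and lower 0 to 1, and precursor genes called lower 0 to 1. The 11 members called higher other than Cldn11 kept their call in all 12 fits without a library. Without control 1, 5154 genes in all were called against 4182, Lhfpl3, Enpp6 and Gal3st1 changed sign to -0.0031, -0.013 and 0.026, and Cnp and Zfp488 joined those higher and C1ql1 those lower; without control 4, Mbp and Tspan2 joined those higher.

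With DESeq2, with library totals alone and without a count filter, Tspan2 was also called, so 2 mature genes were higher. Without a filter Mog was not called (adjusted p = 0.0561) and Nkx6-2 was. With at least 50 counts, 17 members were tested, 1 committed and 0 mature genes were called higher, and the precursor median was 0.29. Against a minimum fold of 1.2, 1035 genes in all, 42 genes of the other lists and 8 members higher were called, with 1 committed and 0 mature genes higher, and 0 members (0 mature genes) lower; Nkx2-2, Sox6, Gpr17, Cldn11 and Mog lost their calls. With the transcription factors added, 9 precursor genes were higher and the median was 0.65. Median-ratio factors changed no call of a member.

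Only members near 0 that were not called changed sign: Lhfpl3 ran from -0.061 to 0.054, Enpp6 from -0.16 to 0.21 and Gal3st1 from -0.22 to 0.13. In the fits without 1 library, these uncalled members moved by over 1.5 times with no change of sign: Matn4 (0.024 to 0.15), Myrf (0.047 to 0.20), Pcdh15 (-0.14 to -0.047), Ugt8a (0.098 to 0.30), Enpp2 (-0.18 to -0.031), Mobp (-0.56 to -0.21), Gjc3 (0.29 to 0.60) and Ermn (0.12 to 0.27). Same-numbered samples correlated at -0.038 to 0.093, so the numbers are not a pairing; the fit with the replicate block called 13 members higher, adding Zfp488 (0.95, adjusted p = 0.0309), and 3659 genes in all. Of the myelin genes not called, Mag, Mobp, Gal3st1, Gjc3 and Ermn had mean counts of 9.58 to 12.4 a library and SEs of 0.20 to 0.37, and Cnp, Enpp2, Mbp and Tspan2 had 142 to 1142 and SEs of 0.054 to 0.13; the part of depth in the calls was not tested. In all, 7 members had a seed site in any coding transcript too.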
